A study of Mus musculus with 3 samples.

Results

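The C9 naive T cells were the CD4 cells that the deposited annotation placed in cluster C9 of 13 CD4 clusters, a cluster marked by Tcf7 and Ccr7. TEa cells, a marked T cell receptor transgenic population that was co-transferred, were set aside, and 309 of the remaining 10091 CD4 cells (3.06%) were members, out of 21204 CD4 and CD8 cells in all. No TEa cell lay in C9. The members comprised 110 cells from saline-treated recipients, 105 from recipients given 5 mg/kg cyclosporin (CSA) and 94 from recipients given 50 mg/kg. The comparison population was the other 9782 CD4 cells of the same pools.

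The study took donor T cells from spleens of irradiated B6D2F1 mice on day 7 after transplantation. All 3 groups received B6 bone marrow, B6 T cells and TEa T cells, and differed only in the daily injection from day 0 to day 6, which was saline, the lower CSA dose of 5 mg/kg or the higher one of 50 mg/kg. Each group had 6 mice, pooled as pairs of 2 within the group to give 3 pools that were told apart by hashtag antibodies. Sorted CD4 and CD8 T cells of 1 group were mixed in equal parts and went through 1 droplet capture for 5-prime single-cell RNA and receptor sequencing, so treatment and capture cannot be told apart, and the spread between pools is the spread between pairs of mice within 1 capture. A change of mean level in a sum over cells may come from more cells that use a gene or from more RNA of it per cell. The sums alone do not tell these apart. The ages and sexes of the mice are not given in the sources used here.

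Naive CD4 T cells have not yet met an antigen that their receptor recognises. They recirculate through lymphoid organs with the chemokine receptor CCR7, are held in a resting state by transcription factors such as KLF2, FOXO1 and BACH2, depend on IL-7 and the anti-apoptotic protein BCL2 for survival, and use TCF-1 (Tcf7) and LEF1 to keep their capacity for self-renewal. Once the receptor is engaged, calcium activates the phosphatase calcineurin, which frees NFAT to enter the nucleus. Cyclosporin bound to cyclophilin A (Ppia) blocks calcineurin. In an allogeneic graft most donor CD4 T cells are driven out of the naive state within days, so cells that still look naive are few.

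Expression was summed over the C9 cells of each pool and is given as CPM, the number of unique molecular identifiers (UMIs, 1 per captured RNA molecule) of a gene scaled to 1000000 UMIs of those cells. The 9 pools held 20 to 50 C9 cells and 58578 to 172953 C9 UMIs each, so a gene at 50 CPM rests on only a few molecules in a pool. Between 58 and 85 cell barcodes were shared by any 2 captures. 76 of the 309 cells had fewer than 2000 RNA UMIs. The grouping of these cells hardly depended on how finely the CD4 cells were divided. At 6 other resolutions in the deposited annotation, 297 to 309 of them stayed together in a single cluster, which held 301 to 340 cells.

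C9 carried the genes of naive T cells at higher levels than the other CD4 cells, which is partly what defined the cluster, so these levels are a description without a test. Ccr7 averaged 517 ± 163 CPM in C9 against 56.9 ± 10.1 CPM (SD over 9 pools) in the other CD4 cells of the same pools, and C9 ranked first of the 13 clusters. The range in C9 was 328 to 855 CPM and that in the other cells 35.9 to 67.0, so no pool overlapped. Igfbp4, an insulin-like growth factor binding protein used by naive CD4 cells, was at 1408 ± 494 CPM in C9 against 11.4 ± 4.85 CPM. C9 also ranked first for Igfbp4, Bcl2, Bach2, Lef1 and Ly6c1. Il7r, the IL-7 receptor alpha chain, ranked second after C12.

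Tcf7 set C9 apart less than Ccr7 did. It averaged 271 ± 73.8 CPM in C9 against 154 ± 88.7 CPM and was higher in C9 in 9 of 9 pools, but C9 ranked below C4 (444 ± 307), C2 (388 ± 105) and C10. C2, the other large Tcf7-high cluster with 1365 cells, had 200.3 ± 69.8 CPM of Ccr7 and 20.97 ± 17.8 of Igfbp4. In the mean over all pools, high Tcf7 was therefore shared with C2 and C4, while Igfbp4 averaged at most 69.8 CPM in any other cluster. The order for Tcf7 differed by dose. C4 was at 800, 828 and 714 CPM in the saline pools and C9 at 364, 360 and 307. At 50 mg/kg C4 was at 101, 76.6 and 89.3 CPM, C10 at 45.7, 148 and 72.0, C2 at 279, 211 and 285 and C9 at 316, 173 and 211.

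**Figure D1:**
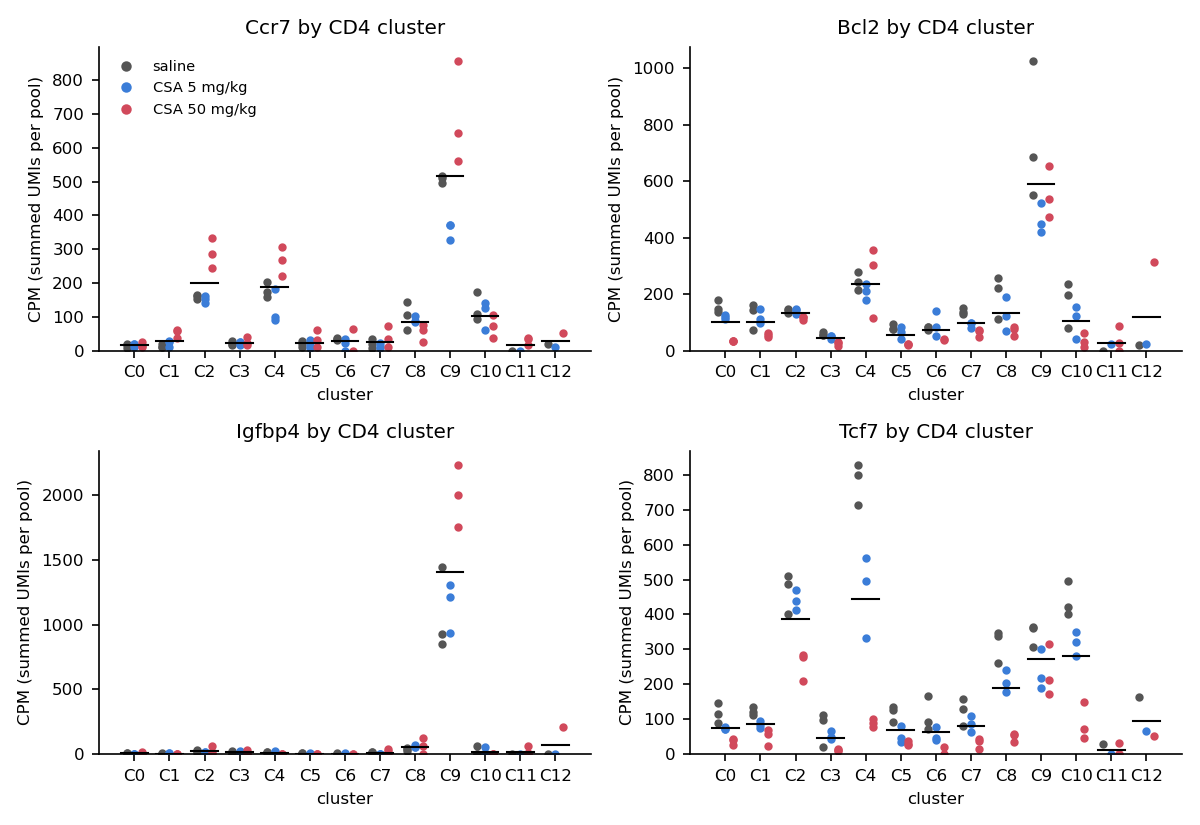
Levels of Ccr7, Bcl2, Igfbp4 and Tcf7 (CPM of summed UMIs, y axis) in each pool for the 13 CD4 clusters (x axis), with points coloured by treatment and a black line at the mean over pools. C9 has the highest mean of the clusters for Ccr7, Bcl2 and Igfbp4, with Igfbp4 at a mean of 1408 CPM. The mean of Tcf7 over all pools is higher in C4 and C2, but the C4 pools at 50 mg/kg lie below those of C9.

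In the GENCODE M21 annotation of mm10, the build the files use, Igfbp4 (chromosome 11, 99041244 to 99054392, plus strand) and Ccr7 (chromosome 11, 99144196 to 99155077, minus strand) lie near each other on the same chromosome as Tcf7 (chromosome 11, 52252371 to 52283014, minus strand). Ly6c1, which has a near-identical neighbour in Ly6c2, lies on chromosome 15, 75044018 to 75048830, minus strand. Reads from Ly6c1 and Ly6c2 may be divided between them by the authors' counting.

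Among the 3531 genes with at least 50 CPM in C9 or in the other CD4 cells, the median log2 ratio of C9 to the other cells (5 CPM added to each) was -0.21, with 236 genes higher and 624 lower in C9 in 9 of 9 pools. Among the 15 highest ratios were those of Igfbp4 (6.41), Ly6c1 (4.57), the LIM protein gene Pdlim4 (3.93), Atp1b1, a sodium pump subunit (3.86), Gm10260 (3.60), Treml2 (3.57), Ramp1 (3.10), the adhesion molecule Jaml (3.02), Ccr7 (2.97), Drc1 (2.91), the unconventional myosin Myo6 (2.60), Dapl1 (2.45), Bcl2 (2.44) and Neb (2.42). The 10 lowest were Adam8 (-3.73), the inflammatory chemokine Ccl3 (-3.60), Zdhhc2 (-3.50), the integrin beta 1 gene Itgb1 (-3.12), Bhlhe40 (-2.95), Atxn1 (-2.89), the chemokine receptors Ccr2 (-2.88) and Cxcr6 (-2.76), Asb2 (-2.87) and Ahnak (-2.76). Ccr7, a receptor for homing to lymphoid tissue, thus lay near the top of the order and receptors for inflamed tissue at the bottom.

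The same split ran through the gene lists, again as a description. Of 20 naive T cell genes, 19 were higher in C9 in 9 of 9 pools (median log2 ratio 1.60). Of 24 effector genes, 18 were lower in 9 of 9 pools and none higher (-2.05). The activation receptor Cd44 was at 25.02 ± 26.5 CPM in C9 against 117 ± 20.2 CPM. Genes induced through the T cell receptor (13 of 22 lower, median -1.34), cell cycle genes (18 of 24 lower, -1.34) and actin cytoskeleton genes (14 of 18 lower, -0.68) were at lower levels in C9. Glycolysis genes were lower as well (5 of 11 lower, -0.58), with the list at 0.292 to 0.343% of UMIs in C9 pools against 0.468 to 0.493% in the others. Nuclear genes of oxidative phosphorylation (8 of 78 lower, -0.21) and the mitochondrial genome (3 of 12 lower, -0.23) lay near the median of all genes.

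Other groups were higher in C9. Cytosolic ribosomal protein genes were higher in 9 of 9 pools for 73 of 82 (median 0.65). Interferon-response genes were higher for 15 of 30 (0.87), among them the GTPase genes Iigp1 (2.27) and Igtp (1.56). Of 19 survival and cytokine signalling genes 9 were higher (0.50), including the cytokine signal inhibitors Socs3 (2.42) and Socs1 (1.73) and the IL-4 receptor gene Il4ra (2.03). Of 16 quiescence genes 8 were higher (0.36), with the steroid-responsive Tsc22d3 at 1.94 and the anti-proliferative Btg1 at 1.11. MHC class I genes (5 higher and 1 lower of 15, median 0.07), immediate early and heat shock genes (5 higher of 13, 0.43), Ly6 genes (1 higher and 1 lower of 4, -0.46) and genes of calcineurin, NFAT and cyclophilins (3 lower of 10, -0.43) were divided or little apart. Homing genes were more often lower in C9 than higher (7 lower and 3 higher of 14, median -0.65). Over all 3531 genes, 624 were lower and 236 higher in 9 of 9 pools (median -0.21).

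Markers of other cell types made up a small part of C9 UMIs, though not always less than in the other CD4 cells. Over the 9 pools, the summed level of 4 regulatory T cell markers was 0.00383 to 0.0188% of UMIs, of 5 follicular helper markers 0.00347 to 0.0256%, of 4 Th17 markers 0 to 0.00171%, of 3 gamma-delta markers 0 to 0.00302%, of 4 NK markers 0 to 0.00176%, of 5 erythroid genes 0 to 0.00527%, of 8 B cell markers 0.0181 to 0.0314% and of 8 myeloid genes 0.0179 to 0.0683%. In the other CD4 cells the ranges were 0.0116 to 0.0349% for the regulatory, 0.0159 to 0.104% for the follicular helper, 0.0293 to 0.0443% for the B cell and 0.0311 to 0.0475% for the myeloid list. The gamma-delta markers at 50 mg/kg were at 0.00132 to 0.00302% in C9 and 0.000213 to 0.000294% in the others, and the myeloid genes in saline at 0.0276 to 0.0683% and 0.0339 to 0.0373%. Cd79a, Ms4a1, Jchain, Il17a, Il23r, Ncr1 and Tcrg-C2 had no UMI in any C9 cell, and Foxp3 had 7 UMIs in all.

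Genes of CD8 and effector cells were also found in C9, and several of them differed between the captures. Gzma averaged 394 ± 109 CPM in the C9 pools of the saline group, against 374 ± 79.0 in the other CD4 cells, and 8.63 ± 10.4 against 67.9 ± 27.5 at 50 mg/kg. Ccl5 followed no order of dose in C9, with means of 1100.0, 303 and 621 CPM from saline to the higher dose, against 991, 798 and 2791 in the other CD4 cells. Cd8a was at 0 in every CD4 cell and Cd4 at 0 in every CD8 cell of the tables, so neither checks anything. Cd8b1, the CD8 beta chain, was at 253 ± 52.4 CPM (mean ± SD, n = 3 pools) in C9 in the saline capture, 140.1 ± 13.5 at 5 mg/kg and 27.4 ± 13.6 at 50 mg/kg. That was 19.5 ± 4.73%, 9.70 ± 1.06% and 1.02 ± 0.526% of the level in the CD8 cells of the same pools. In the other CD4 cells the corresponding shares were 11.2 ± 0.851%, 6.32 ± 0.422% and 0.857 ± 0.0604%, so C9 was not alone in this.

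A Cd8b1 UMI was found in 40.0%, 36.2% and 10.6% of C9 cells in the 3 captures and in 40.7%, 35.4% and 13.7% of the other CD4 cells, at median depths of 1981, 3216 and 3144 UMIs per C9 cell and 3130.0, 4462 and 6062 per other CD4 cell. Igfbp4 gives the reverse view, with a UMI in 83.6%, 87.6% and 93.6% of C9 cells but only 2.61%, 2.23% and 1.85% of the others. A Ccr7 UMI was found in 68.2%, 61.9% and 84.0% of C9 cells and in 14.1%, 14.9% and 18.2% of the others. With cells cut at random to an equal number of UMIs, the Ccr7 shares were 43.6%, 28.6% and 44.7% in C9. Saline and 50 mg/kg were then close. The shares were 6.67%, 4.17% and 5.35% in a random sample of the others. For Cd8b1 they were 21.8%, 13.3% and 4.26% in C9 and 16.5%, 10.5% and 2.84% in the sample. For Igfbp4 they were 57.3%, 59.0% and 79.8% in C9 and 1.17%, 1.00% and 0.836% in the sample. The level of Cd8b1 moved with dose in the same captures as the changes reported here for other genes, and its part in them was not tested.

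**Figure D2:**
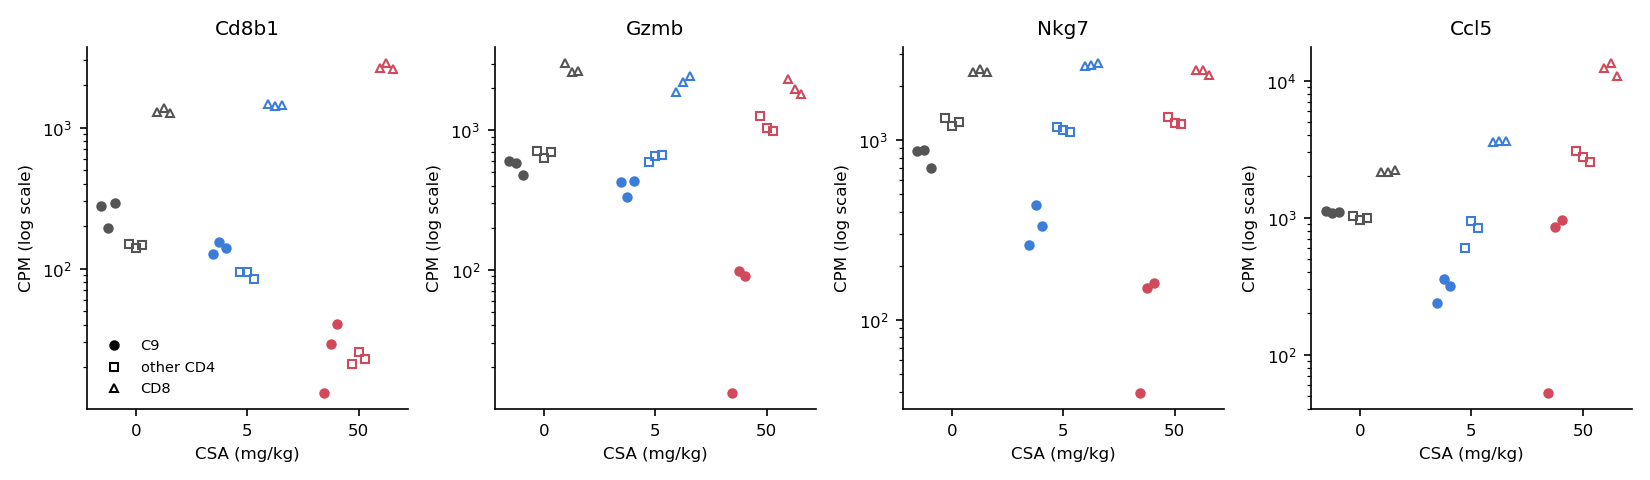
Levels of Cd8b1, Gzmb, Nkg7 and Ccl5 (CPM, log scale) by CSA dose in the C9 cells (filled circles), the other CD4 cells (squares) and the CD8 cells (triangles) of each pool. The C9 pools lie below the CD8 pools for each gene and reach their lowest Cd8b1 values at 50 mg/kg, with a mean of 27.4 CPM.

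No difference in the share of C9 among CD4 cells between doses passed the test. It was 3.08%, 3.38% and 1.73% in the saline pools, 4.34%, 2.68% and 3.62% at 5 mg/kg and 2.02%, 4.55% and 2.63% at 50 mg/kg, and the ranges of all 3 groups overlapped. The means were 2.73 ± 0.879%, 3.55 ± 0.834% and 3.07 ± 1.32% (SD, n = 3 pools). An exact two-sided permutation test of a trend over the ordered doses gave p = 0.831 (0.900 after adjustment over the 13 CD4 clusters). Exact permutation tests of 3 pools against 3, which cannot go below p = 0.1, gave p = 0.4 for a difference of 0.815 percentage points at 5 mg/kg and p = 0.8 for 0.337 points at 50 mg/kg. Among cells of at least 2000 UMIs the share was 1.51 ± 0.541% in saline, 3.83 ± 1.13% with the lower dose and 2.79 ± 1.19% with the higher, differences of 2.32 and 1.28 points (exact trend test, p = 0.189, adjusted 0.308). A fit of cell numbers with edgeR gave log2 changes of 0.17 ± 0.33 (SE) and 0.38 ± 0.33 with adjusted p = 0.722 and 0.349.

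The median C9 cell had fewer UMIs than the median of the other CD4 cells in each group, while C4 had a lower median over all pools (2316) than C9 (2729). The median per C9 cell was 1974 ± 53.2 in saline pools, 3105 ± 414 in those at 5 mg/kg and 3236 ± 329.8 in those at 50 mg/kg (mean ± SD of 3 pools), against 3118 ± 101, 4447 ± 262 and 6066 ± 266 for the others. The saline pools had the lowest values in C9, at 2035, 1941 and 1945, and did not overlap the CSA pools. In an exact trend test the p was 0.0417 (0.0694 after adjustment over 5 measures per cell). Median genes per C9 cell were 1196 ± 17.6, 1299 ± 91.2 and 1388 ± 41.8 (exact trend test, p = 0.0214, adjusted 0.0694). Cells were also thinned to 1000 UMIs, using every C9 cell and a random 149 or 150 of the other CD4 cells of each pool. The order in C9 was then no longer with dose, at 714 ± 6.03, 559.5 ± 6.06 and 579.5 ± 22.1 genes (exact trend test, p = 0.189). The other cells had 727, 625 and 613. The thinned saline pools of C9 (708 to 720) still lay above all CSA pools (553 to 565 and 556.5 to 600.5), a pattern that a trend test over ordered doses does not measure. The mitochondrial share of UMIs was 1.33 ± 0.0704%, 1.21 ± 0.107% and 1.42 ± 0.163% (p = 0.831, exact).

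The T cell receptors of C9 were all different from one another and from those of the other CD4 cells of the same pool. A clonotype, the receptor sequence that a T cell shares only with its own clonal relatives, was available for 202 of the 309 C9 cells (65.4%) and for 79.6% of the other CD4 cells. The 202 cells held 202 distinct clonotypes. None of the 202 had a clonotype found in another cell of its pool, which allows a share of up to 1.49% by the limit of 3 counts (exact 95% upper bound 1.81%). Among the other CD4 cells the share was 21.9 ± 4.38% over the 9 pools, with a range of 17.1 to 28.7%. The difference of -21.9 percentage points pointed the same way in 9 of 9 pools (exact sign-flip test over pools, two-sided, p = 0.00391, the smallest it can give). It rests on receptor sequences, which were not the basis of the clusters.

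Among the 13 clusters, C9 and C11 lay at the bottom of the order of clonal sharing. C11 had 1 such cell of 83 (1.20%), C2 10.3% and C4 13.6%, while C3 reached 34.1%. At least 129 of the C9 clonotypes had both an alpha and a beta chain, and 20 had 2 alpha chains. The count of 129 leaves out every clonotype with the letters NA in it. These letters mark a missing chain but can also occur within a receptor sequence, so 129 is a lower bound. The C9 clonotypes used 19 beta-chain V genes, against 21 in the other CD4 cells. Only 2 cells carried the TRAV11 and TRAJ18 segments that mark invariant NKT cells. A single clonotype (1 of 202) was also present in a different pool. The share of C9 cells with a clonotype was 57.8 ± 7.45% in saline pools, 60.9 ± 11.3% in those at 5 mg/kg and 78.4 ± 10.1% in those at 50 mg/kg (exact trend test, p = 0.0417, adjusted 0.0694).

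**Figure D3:**
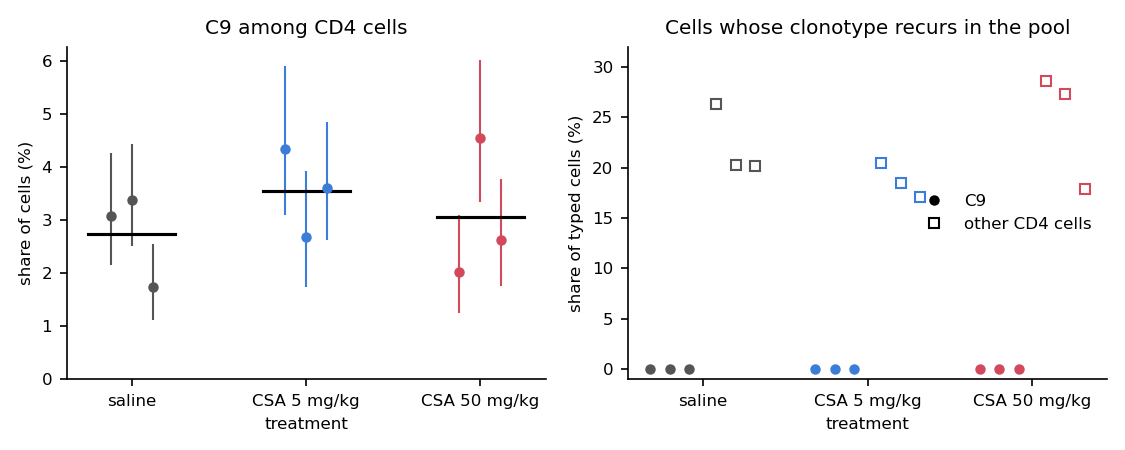
Left, share of C9 among CD4 cells (%) in each pool by treatment, with exact 95% binomial intervals that cover counting error only and a black line at the group mean. Right, share of typed cells (%) whose clonotype recurs in the same pool, for C9 (filled circles, 0 in all 9 pools) and the other CD4 cells (open squares, 17.1 to 28.7%).

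The study compared doses to ask how CSA acts on donor T cells after transplantation. Within C9, edgeR's quasi-likelihood test on the sums per pool tested 1778 genes, with values on the TMM scale, which corrects for composition. The threshold was a Benjamini-Hochberg adjusted p of 0.05. At 50 mg/kg against saline, 205 genes were higher (11.5% of those tested) and 272 lower (15.3%), 26.8% in both directions, and the pools of 38.5% of the genes did not overlap. The balance turned to 289 higher and 198 lower without the filter on low counts, and cells of at least 2000 UMIs gave 60 and 84. At 5 mg/kg against saline, 138 were higher (7.76%) and 155 lower (8.72%), 16.5% in both directions, with pools not overlapping for 31.1%. The split at 5 mg/kg depended on the scaling, with 107 higher and 239 lower when libraries were scaled by their size alone, which moved the median log2 change of all genes from -0.06 to -0.20, and 96 and 43 with DESeq2. Both comparisons use the same saline pools.

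Genes with their highest mean in C9 were more common among those called higher at 50 mg/kg than among all genes tested. For those called lower the share was closer to that of all genes. In a separate fit of the other CD4 cells of the same pools, with far more UMIs and 10562 genes tested, 3663 genes were higher and 3779 lower at 50 mg/kg. Among all genes tested in C9, 677 (38.1%) had a higher mean in C9 than in both the other CD4 cells and the CD8 cells. This held for 143 of the 205 higher genes (69.8%) and 115 of the 272 lower genes (42.3%).

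The direction of change went with transcript length. The median length of the union of exons was 2053 bases for the genes higher at 50 mg/kg, 7138 for those lower and 3553 for all tested. At 5 mg/kg it was 1756 bases for the higher and 7707 for the lower genes. Without ribosomal protein genes, the medians of the higher genes were 2202 and 1747. The other CD4 cells of the same captures showed medians of 2879 bases for the higher and 6572 for the lower genes at 50 mg/kg. With a trend on exon length removed from each pool, 143 genes were higher and 143 lower at 50 mg/kg, and 107 and 91 at 5 mg/kg. Among the genes named here, this ended the call at 50 mg/kg for Ccr7, Il6ra, Itgb7, Ly6c1, Nfatc1, Slfn2, Ifi213, Rnf213, Slfn8, Hk1, Pfkp, Cfl1, Lcp1, Jund, Hsp90ab1, mt-Nd3, mt-Nd4, Sarnp and Gm26825. At the lower dose it ended the call for Bach2, Bcl2, Il6ra, Stat3, Itga4, Ets1, Slfn2, Ly6a, Isg15, Isg20, Ifi27l2a, Rnf213, Ppp3cb, mt-Nd3, mt-Nd4 and Jmjd1c. The part of length in single genes was not tested otherwise.

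**Figure D4:**
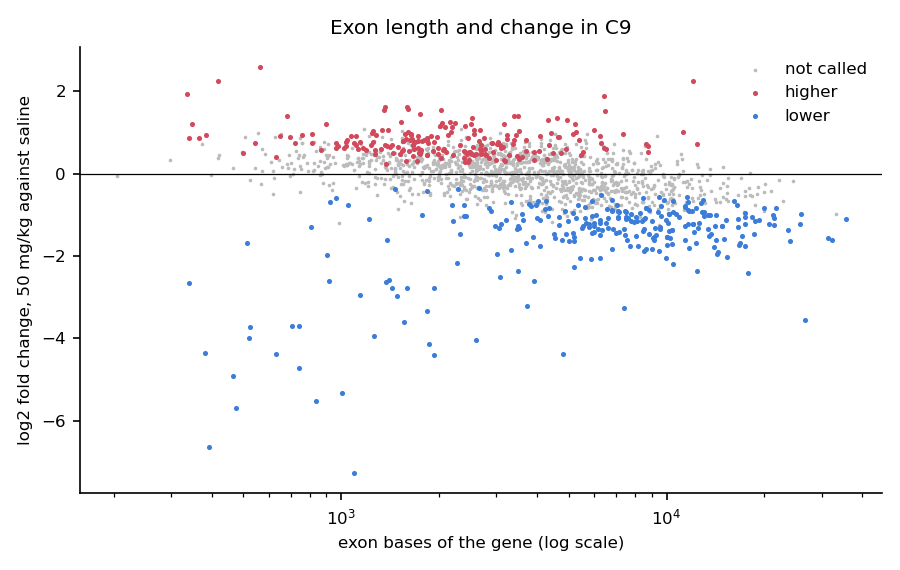
Log2 fold change in C9 at 50 mg/kg against saline (y axis) over the exon length of each gene (x axis, log scale), with genes called higher in red, called lower in blue and not called in grey. The genes called lower fall into a group of long genes, with a median of 7138 bases over all that were called lower, and a few short genes with the largest falls.

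The genes of the naive state included both rises and falls at 50 mg/kg, to be set beside the 11.5% higher and 15.3% lower over all genes tested. Of the 20 naive T cell genes tested, 4 rose (Igfbp4, Klf2, Ccr7 and Dapl1) and 4 fell (among them Il7r, Bach2 and Il6ra), with a median log2 change of -0.17 against 0.01 over all genes tested. With 5 mg/kg none rose and 5 fell (among them Bach2, Bcl2, S1pr1 and Il6ra), with a median of -0.36 against -0.06. After removal of the length trend the counts were 4 and 3 at 50 mg/kg and 0 and 1 at 5 mg/kg. In cells of at least 2000 UMIs they were 3 and 1, and 0 and 0.

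Igfbp4 was at 1357, 889 and 817 CPM in the saline pools, 1281, 1353 and 981 at 5 mg/kg and 1783, 1971 and 2267 at 50 mg/kg. All 3 pools at 50 mg/kg lay above the 6 other pools. The log2 fold change was 0.97 ± 0.14, adjusted p = 6.67e-09 (SE, edgeR) at 50 mg/kg and 0.21 ± 0.15, adjusted p = 0.371 at 5 mg/kg, and the rise at 50 mg/kg passed in all 18 alternative settings. Klf2, which keeps T cells quiescent and drives S1pr1, was at 708, 755 and 768 CPM in the saline pools, 923, 783 and 834 at 5 mg/kg and 1448, 1162 and 1205 at 50 mg/kg, again with no overlap. It rose by 0.75 ± 0.14, adjusted p = 2.06e-05 at 50 mg/kg and was at 0.20 ± 0.15, adjusted p = 0.418 at 5 mg/kg.

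Ccr7 was at 484, 487 and 474 CPM in the saline pools, 391, 385 and 343 at 5 mg/kg and 657, 553 and 868 at 50 mg/kg, lowest in the 5 mg/kg pools and highest in the 50 mg/kg pools without overlap. It rose by 0.48 ± 0.18, adjusted p = 0.0349 at 50 mg/kg against saline and by 0.86 ± 0.18, adjusted p = 0.000233 against 5 mg/kg. The first of these calls was lost in 9 of 18 alternative settings, among them DESeq2 (adjusted p = 0.147), scaling by library size (0.0871) and removal of the length trend (0.25, adjusted p = 0.372), and the second in none. Dapl1, a gene of resting T cells, rose by 1.40 ± 0.33, adjusted p = 0.000615 at 50 mg/kg, a call lost in cells of at least 2000 UMIs and with DESeq2.

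Il7r fell at 50 mg/kg. It was at 602, 805 and 556 CPM in the saline pools, 782, 689.8 and 497 at 5 mg/kg and 295, 262 and 317 at 50 mg/kg, with the 50 mg/kg pools below all others, and changed by -1.24 ± 0.20, adjusted p = 3.91e-07 at 50 mg/kg against saline and -1.17 ± 0.19, adjusted p = 2.01e-06 against 5 mg/kg. The value at 5 mg/kg against saline was -0.06 ± 0.17, adjusted p = 0.844. Bach2, a repressor that keeps effector programmes off, was at 236, 117 and 131 CPM in the saline pools, 49.9, 53.1 and 56.0 at 5 mg/kg and 40.2, 34.2 and 40.9 at 50 mg/kg, highest in the first saline pool and without overlap between saline and either dose. It changed by -2.06 ± 0.45, adjusted p = 0.000219 at 50 mg/kg and -1.56 ± 0.42, adjusted p = 0.00466 at 5 mg/kg. Bach2 is a long transcript of 9940.0 exon bases, and with the length trend removed the values were -1.55 (adjusted p = 0.0102) and -1.13 (0.0742).

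Tcf7 was at 342, 344 and 294 CPM in the saline pools, 199.7, 226 and 315 at 5 mg/kg and 322, 171 and 214 at 50 mg/kg, with overlap between saline and 50 mg/kg, and its change of -0.60 ± 0.25 (adjusted p = 0.0617) missed the threshold. It passed with library-size scaling (adjusted p = 0.0325) and with the length trend removed (-0.75, adjusted p = 0.0225). The value at 5 mg/kg was -0.39 ± 0.24, adjusted p = 0.299. Bcl2 was at 519, 654 and 980.3 CPM in the saline pools, 441, 544 and 469 at 5 mg/kg and 483, 529.7 and 664 at 50 mg/kg. It was called lower at 5 mg/kg (-0.54 ± 0.18, adjusted p = 0.0309), in 7 of 18 alternative settings as well but not with the length trend removed (-0.14, adjusted p = 0.718), and gave -0.31 ± 0.18, adjusted p = 0.199 at 50 mg/kg.

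**Figure D5:**
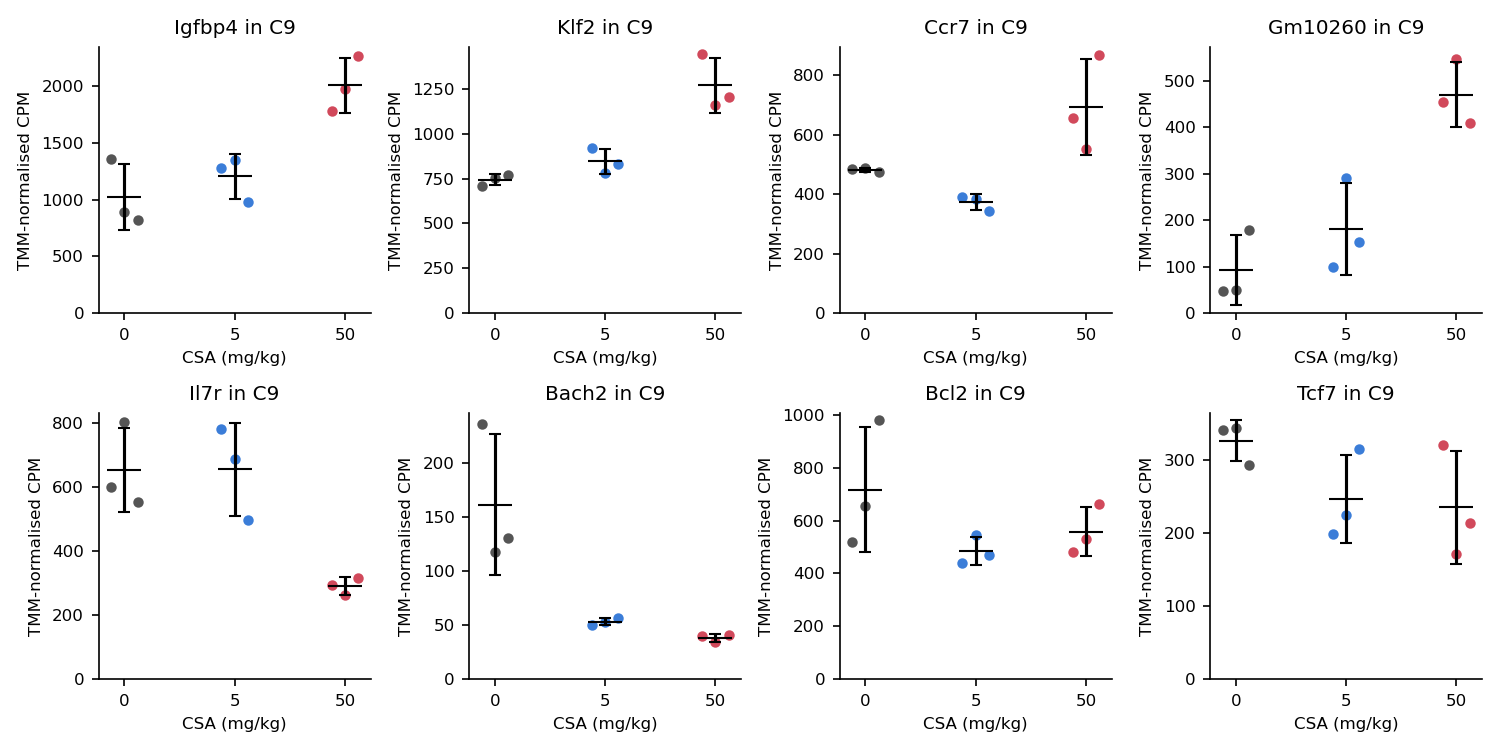
TMM-normalised CPM in C9 (y axis) of 8 genes in each pool by CSA dose in mg/kg (x axis), with black bars at the mean and SD of 3 pools. Igfbp4, Klf2, Ccr7 and Gm10260 are highest at 50 mg/kg, Il7r is lowest there with all 3 pools between 262 and 317, Bach2 is lower at both doses than in saline, and the saline and 50 mg/kg pools overlap for Bcl2 and Tcf7.

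Homing and survival genes gave small counts in both directions. Over all genes tested, 11.5% rose and 15.3% fell with the higher dose, and 7.76% and 8.72% with the lower. Of 11 homing and egress genes tested, 3 rose at 50 mg/kg (Ccr7, Klf2 and the gut-homing integrin chain Itgb7, 0.60 ± 0.18, adjusted p = 0.00974) and 3 fell (among them the integrin chains Itga4, -1.78 ± 0.30, adjusted p = 9.67e-07, and Itgb1), median 0.13. With 5 mg/kg Itgb1 rose and 3 genes fell, among them S1pr1 and Itga4, median -0.25. Itgb1 was at 106, 109 and 114 CPM in the saline pools, 216, 199 and 245 at 5 mg/kg and 13.4, 28.5 and 51.1 at 50 mg/kg, so the doses lay on opposite sides of saline with no overlap (5 mg/kg 1.03 ± 0.31, adjusted p = 0.0144, 50 mg/kg -1.75 ± 0.47, adjusted p = 0.00298). The rise at 5 mg/kg was lost without the third pool of that dose. The mean level of Itgb1 was higher in the other CD4 cells than in C9.

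Of 14 survival and cytokine signalling genes tested, 3 rose at 50 mg/kg (Cish, Socs1 and the kinase gene Pim1, all targets of STAT signals) and 4 fell (among them Il7r, Il6ra and Stat3), median -0.33. Cish, an inhibitor of cytokine and receptor signals, was at 35.4, 67.1 and 32.7 CPM in the saline pools, 108, 92.9 and 49.0 at 5 mg/kg and 241, 199 and 112 at 50 mg/kg and rose by 1.88 ± 0.40, adjusted p = 0.000145. None of the 14 rose at 5 mg/kg and 4 fell (among them Bcl2, Il6ra and Stat3), median -0.26. Of 16 quiescence genes, 3 rose (Klf2, Tsc22d3 and Slfn2) and 3 fell (Tgfbr2, Ets1 and the cell cycle inhibitor Cdkn1b) at 50 mg/kg, and the same without Klf2 held at 5 mg/kg (medians -0.30 and -0.31). Tgfbr2, a receptor for TGF-beta, was at 259.7, 201 and 261 CPM in the saline pools, 83.2, 92.9 and 91.1 at 5 mg/kg and 80.4, 79.7 and 40.9 at 50 mg/kg, and changed by -1.76 ± 0.34, adjusted p = 2.06e-05 and -1.39 ± 0.32, adjusted p = 0.000616.

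Most genes of calcineurin signalling and of receptor signals were too low to be tested in these cells. The counts below stand beside 11.5% higher and 15.3% lower of all genes tested at 50 mg/kg, and 7.76% and 8.72% at 5 mg/kg. Of 30 genes induced through the receptor only 9 were tested. At 50 mg/kg Nfatc1 and Batf fell and none rose (median -0.68), and at 5 mg/kg none passed in either direction (median 0.18). Batf, a factor of activated T cells, was at 177, 235 and 147 CPM in the saline pools, 133, 186 and 105 at 5 mg/kg and 13.4, 34.2 and 40.9 at 50 mg/kg, below all other pools at 50 mg/kg (-2.58 ± 0.42, adjusted p = 4.78e-07). Nfatc1, the NFAT gene that NFAT itself induces, changed by -1.50 ± 0.43, adjusted p = 0.00531, and by -1.15 with the length trend removed, where the call was lost. Of the 5 tested genes of calcineurin, NFAT and cyclophilins, Ppia, which encodes the cyclophilin that binds CSA, rose at 50 mg/kg (3435, 3154 and 2794 CPM in the saline pools, 3319, 3078 and 3216 at 5 mg/kg and 4128, 4147 and 3799 at 50 mg/kg, 0.36 ± 0.10, adjusted p = 0.00315) and Nfatc1 fell. The calcineurin catalytic gene Ppp3cb was called lower at 5 mg/kg (-1.65 ± 0.55, adjusted p = 0.0278), a call kept in 6 of 15 settings. Neither Batf, Nfatc1 nor Ppia had its highest mean in C9.

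The 10 largest rises at 50 mg/kg among genes without overlap and with at least 50 CPM were those of Gm10260 (2.58), Myo6 (2.25), Cish (1.88), the calcineurin B homologous protein gene Tesc (1.61), Sarnp (1.61), the spermidine synthase gene Srm (1.56), Rpl36al (1.55), Gm26825 (1.54), the mitochondrial ribosomal gene Mrps17 (1.52) and Drap1 (1.46). Adjusted p for these genes ran from 6.71e-11 to 0.0321. Gm10260, a short gene of 561 exon bases that is annotated as protein coding (chromosome 13, 97760072 to 97760632, minus strand), was at 47.2, 50.3 and 179.7 CPM in the saline pools, 99.8, 292 and 154 at 5 mg/kg and 456, 547 and 409 at 50 mg/kg and rose by 2.58 ± 0.31, adjusted p = 6.71e-11. Gene models of this kind can share reads with related copies, so its level is uncertain. Myo6, on chromosome 9, 80165031 to 80311729, plus strand, was at 59.0, 41.9 and 16.3 CPM in the saline pools, 99.8, 26.5 and 7.01 at 5 mg/kg and 201, 199 and 204 at 50 mg/kg, nearly equal in the 50 mg/kg pools and spread over a wide range at 5 mg/kg (2.25 ± 0.43, adjusted p = 2.22e-05).

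Ribosomal protein genes formed the broadest rise. Of 81 tested, 73 rose with the higher dose and 75 with the lower, and none fell at either dose (medians 0.60 and 0.70). The shares of all genes tested that rose were 11.5% and 7.76% (medians 0.01 and -0.06). Together they took 22.2 to 24.1% of C9 UMIs in the saline pools, 35.5 to 36.6% at 5 mg/kg and 31.7 to 35.8% at 50 mg/kg. With the length trend removed, 54 rose at 50 mg/kg and 67 at 5 mg/kg. In that setting 143 and 107 of all 1767 genes tested were higher. In cells of at least 2000 UMIs 32 of 81 rose at 50 mg/kg (median 0.27) and 55 at 5 mg/kg (median 0.45). There 60 and 73 of all 1267 genes tested were higher. The 5 largest rises at 5 mg/kg were all in this list, Rpl38 (1.62), Rps28 (1.60), Rps29 (1.60), Rps21 (1.57) and Rps27 (1.46). Rps29 was at 1511, 1586 and 1487 CPM in the saline pools, 4667, 4338 and 4883 at 5 mg/kg and 2734, 2689 and 3054 at 50 mg/kg, highest at 5 mg/kg and without overlap between the groups. In the other CD4 cells all 83 ribosomal protein genes tested were higher at both doses (medians 0.93 and 0.91).

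Genes of energy metabolism gave few calls. Of 72 nuclear genes of oxidative phosphorylation tested, 8 rose and 1 fell at 50 mg/kg (median 0.31) and 11 rose and 1 fell at 5 mg/kg (0.29), beside 11.5% and 7.76% of all genes higher. The rises at 50 mg/kg numbered 4 with DESeq2 and 0 in cells of at least 2000 UMIs, and those at 5 mg/kg 4 and 3. In the other CD4 cells 78 of 81 rose at 50 mg/kg (median 0.95), at a far greater depth. The genes mt-Nd3 and mt-Nd4 rose at both doses among 12 tested genes of the mitochondrial genome. Of 10 glycolysis genes, Eno1 rose and Hk1 and Pfkp fell at 50 mg/kg, and none passed at 5 mg/kg. Actin and cytoskeleton genes rose in 6 cases (Pfn1, Cfl1, Tmsb4x, Tmsb10, Coro1a and Vim) and fell in 2 (Actg1 and Lcp1) of 17 tested at 50 mg/kg, with Tmsb10 up and Actg1 down at 5 mg/kg.

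Interferon-response genes changed in both directions, and their balance depended on the processing. Over all genes tested, 7.76% rose and 8.72% fell at 5 mg/kg, and 11.5% and 15.3% at 50 mg/kg. Of 27 interferon-response genes tested, 6 rose at 5 mg/kg (Irf7, Isg15, Isg20, Ifi27l2a, Ifi47 and Ly6a) and 2 fell (among them Rnf213), median 0.14. With 50 mg/kg 1 rose (Ifi47) and 7 fell (among them Irf1, Gbp4, Gbp7, Ifi213, Rnf213 and Slfn8), median -0.30. With scaling by library size, 4 were higher and 4 lower at 5 mg/kg. Without the filter on low counts 2 were higher and 2 lower at 50 mg/kg. In cells of at least 2000 UMIs 2 were higher at 5 mg/kg and 2 lower at 50 mg/kg, with none in the other direction. Irf7, the master factor of the type I interferon response, was at 118, 151 and 196 CPM in the saline pools, 324, 425 and 315 at 5 mg/kg and 161, 148 and 123 at 50 mg/kg. The 5 mg/kg pools lay above all others, with a change of 1.19 ± 0.27, adjusted p = 0.000414 at 5 mg/kg and -0.07 ± 0.31, adjusted p = 0.890 at 50 mg/kg. Isg15, an antiviral ubiquitin-like protein gene, changed by 1.07 ± 0.31, adjusted p = 0.00976 at 5 mg/kg, lost with the length trend removed (0.69, adjusted p = 0.185) and without the third 5 mg/kg pool. Of 14 MHC class I genes, Psmb8 rose at 5 mg/kg and H2-Q7 fell at 50 mg/kg.

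The remaining lists are to be set beside the same shares over all genes tested, 11.5% higher and 15.3% lower at 50 mg/kg. At 5 mg/kg these shares were 7.76% and 8.72%. Among the remaining lists, 1 of 4 Ly6 genes rose at 50 mg/kg (Ly6c1, 0.77 ± 0.22, adjusted p = 0.00502, at 0.51 and adjusted p = 0.109 with the length trend removed) and 2 rose at 5 mg/kg (Ly6a and Ly6e). Of 12 immediate early and heat shock genes, Jund, Hspa8 and Hsp90ab1 rose at 50 mg/kg and none passed at 5 mg/kg. No member of the regulatory T cell, Th17, gamma-delta, NK or erythroid lists was high enough to be tested, and of the follicular helper, B cell and myeloid genes tested (1, 1 and 3) none passed at either dose. The largest falls at 5 mg/kg were those of Jmjd1c (-2.21), Hist1h1c (-2.18), Snrnp200 (-2.07), A430078G23Rik (-2.04) and Samd9l (-1.95).

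Effector genes fell at 50 mg/kg, and all 10 that were tested had a lower mean in C9 than in the other CD4 or CD8 cells. Of these 10, 9 fell at 50 mg/kg (median -2.62) and 6 at 5 mg/kg (-0.96), and none rose. The shares of all genes tested that fell were 15.3% at 50 mg/kg and 8.72% at 5 mg/kg. The granzyme gene Gzma was at 401, 461 and 261 CPM in the saline pools, 283, 491 and 238 at 5 mg/kg and 0, 5.70 and 20.4 at 50 mg/kg, a total of 3 UMIs at 50 mg/kg against 105 in saline (-5.32 ± 0.48, adjusted p = 4.18e-16). Gzmb was at 567, 554 and 457 CPM in the saline pools, 449, 345 and 448 at 5 mg/kg and 13.4, 96.8 and 91.9 at 50 mg/kg (-2.77 ± 0.27, adjusted p = 2.78e-14), whereas in the other CD4 cells it rose (1.13 ± 0.07, adjusted p = 4.96e-12). The calcium-binding S100a6 likewise changed by -2.62 ± 0.19 in C9 and by 2.04 ± 0.04 in the other CD4 cells. Nkg7, a granule protein gene, changed by -2.61 ± 0.23, adjusted p = 2.02e-16 at 50 mg/kg and -1.18 ± 0.19, adjusted p = 4.21e-07 at 5 mg/kg. Cd8b1 fell as well (-2.96 ± 0.41, adjusted p = 5.97e-09), and as with the values above, how far RNA of other cells enters these falls was not tested.

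Ccl5 did not follow the same course in all pools. It was at 1050.4, 1040.3 and 1046 CPM in the saline pools, 249.6, 371 and 329 at 5 mg/kg and 53.6, 843 and 970.2 at 50 mg/kg, with the first 50 mg/kg pool far below the other pools of that dose, and changed by -0.60 ± 0.21, adjusted p = 0.0209 at 50 mg/kg and -1.74 ± 0.24, adjusted p = 8.35e-09 at 5 mg/kg. In the second 50 mg/kg pool 4 cells held 78, 28, 16 and 14 of 148 Ccl5 UMIs, and in the third a single cell held 84 of 95. Without those 5 cells, 12 and 11 UMIs remained. In the saline pools no C9 cell had more than 9 Ccl5 UMIs, but 89.1% of cells had at least 1, against 61.0% at 5 mg/kg and 29.8% at 50 mg/kg. Ccl5 was thus spread thinly over most C9 cells in saline and concentrated in a few at 50 mg/kg. A single cell of the third 50 mg/kg pool also held 31 of the 39 Ly6c2 UMIs there.

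Ifitm1, an interferon-induced membrane protein gene on chromosome 7, 140967221 to 140969825, plus strand, had 48 UMIs in saline, 67 at the lower dose and 0 at the higher, which is at least 21.01-fold lower than saline when the group's 50 mg/kg sum is set to the floor of 3 UMIs. By pool it was at 212, 159 and 179.7 CPM in the saline pools, 99.8, 119 and 322 at 5 mg/kg and 0, 0 and 0 at 50 mg/kg. Hist1h2ak had 31, 15 and 0 UMIs, at least 13.6-fold lower at 50 mg/kg. The linker histone gene Hist1h1e was at 1133, 1091 and 1160.0 CPM in the saline pools, 416, 398 and 434 at 5 mg/kg and 121, 34.2 and 30.6 at 50 mg/kg, in 3 separate ranges (-4.40 ± 0.25, adjusted p = 6.81e-27). The other large falls were those of Hist1h2ab (-5.68), Hist1h3e (-5.52), Hist1h2bj (-4.93), Hist1h1a (-4.73), the replication factor gene Pclaf (-4.39) and Hist1h3c (-4.39). Of 11 cell cycle genes tested 7 fell at 50 mg/kg (median -1.02) and 4 at 5 mg/kg (-0.59), beside 15.3% and 8.72% of all genes tested. None of the 11 rose, and none had its highest mean in C9. Core histone genes of the same family (H2A, H2B or H3) can be near-identical to one another, so reads may be divided between such copies.

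Between the CSA doses fewer genes differed. At 50 mg/kg against 5 mg/kg, 48 genes were higher (2.7%) and 80 lower (4.5%), 7.2% in both directions, with pools not overlapping for 22.4%. The split was 13 and 57 with DESeq2 and 68 and 74 with scaling by library size. The largest rises without overlap were those of Myo6 (2.15), Gm26825 (1.76), Rcn1 (1.57), Gm10260 (1.52) and Polr2m (1.50), and the largest falls those of Ifitm1, Hist1h2ak, Gzma (-5.01), Hist1h2bj (-4.65) and Hist1h3e (-4.64). Igfbp4 (0.77 ± 0.13, adjusted p = 2.01e-06), Klf2 (0.55 ± 0.13, adjusted p = 0.00231) and Ccr7 also rose and Il7r fell between the doses, while Bach2 (-0.49 ± 0.55, adjusted p = 0.695) and Tcf7 (-0.21 ± 0.25, adjusted p = 0.708) did not pass.

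Whether C9 changed with dose otherwise than the other CD4 cells of the same pools was tested with an interaction term in a fit of both sums, over 9992 genes. At 50 mg/kg the difference was positive for 39 genes (0.39%) and negative for 132 (1.32%), with an unadjusted p below 0.05 for 901. At 5 mg/kg it was positive for 4 (0.04%) and negative for 17 (0.17%), with 502 below 0.05. The balance turned when C2 alone was the comparator, with 159 positive and 92 negative at 50 mg/kg and 91 and 4 at 5 mg/kg. Scaling by library size gave 65 and 119 at 50 mg/kg, and DESeq2 gave 1 and 12 at 5 mg/kg. Cluster membership rests on the same counts, which limits what such a difference can show.

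For the markers the differences ran in both directions. Tcf7 changed by -1.88 ± 0.10, adjusted p = 7.41e-13 in the other CD4 cells at 50 mg/kg, and the difference between C9 and these cells was 1.61 ± 0.27, adjusted p = 7.07e-07. Bcl2 fell in the other CD4 cells (-1.12 ± 0.07), with a difference of 1.06 ± 0.21, adjusted p = 4.48e-05. Bach2 had the opposite pattern, with a rise of 0.65 ± 0.13 in the other CD4 cells and a difference of -2.47 ± 0.51, adjusted p = 0.000195. Dapl1 and Ly6c1 rose in both but less in C9, with differences of -1.82 ± 0.37, adjusted p = 0.000124 and -1.47 ± 0.33, adjusted p = 0.000769. For Igfbp4 (0.49 ± 0.23, adjusted p = 0.463), Klf2 (0.06 ± 0.17, adjusted p = 0.973), Ccr7 (0.40 ± 0.22, adjusted p = 0.619) and Il7r (0.07 ± 0.22, adjusted p = 0.984) the difference did not pass, which does not show that these genes changed alike. The gap between C9 and the summed other CD4 cells was thus wider at 50 mg/kg than in saline for Tcf7 and Bcl2. For Bach2 it was narrower. In C2 alone, Tcf7 went from 486, 510 and 401 CPM in saline pools to 279, 211 and 285 at 50 mg/kg. In C9 it went from 364, 360 and 307 CPM to 316, 173 and 211, without TMM factors. Bcl2 went from 143, 132 and 146 CPM to 107, 119 and 120 in C2. In C9 it went from 553, 685 and 1024 CPM to 474, 538 and 654. Differences from C2 alone are not given for these genes. The part of cluster shares in the sum was not tested.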

How the data were processed

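The authors aligned the 10x libraries to mm10 with Cell Ranger (version not given in the sources used here) and processed them with Seurat 3.0.0, per the labels. The deposited table holds raw UMI counts of 18029 genes in 21204 cells, which the authors had already selected. The deposited cell annotation gave clusters, pools, clonotypes and antibody counts, the mitochondrial share of each cell as a fraction, and 3 module scores that the authors computed from gene lists not given in the sources used here. Doublets were not called again. Removing cells in which a second hashtag reached 0.5 of the first was an alternative.

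UMI counts were summed over the C9 cells of each pool (at least 10 cells required, 20 to 50 found). edgeR 4.0.16 in R 4.3.3 was used with filterByExpr, TMM factors and the quasi-likelihood test, with all 9 pools in 1 fit and no covariate, and Benjamini-Hochberg adjustment over all genes tested. An adjusted p of 0.05 was the threshold. The interaction fits had pool as a block. The p-values measure the spread between pools of 2 mice. Ratios of C9 to the other cells had 5 CPM added. Exact tests were two-sided, and the trend test used all 1680 assignments of pools to groups (smallest p 0.00119). Intervals and limits cover counting error only. The script was tested on simulated data for 50 mg/kg against saline with 1778 genes, where 62.5% of 200 genes changed by 1 on the log2 scale and 99.0% of those changed by 2 were recovered, with 3 and 8 unchanged genes called.

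The members, gene lists and tests were chosen with earlier results of these data known. Genes were named by a fixed rule, namely the markers Tcf7, Ccr7, Il7r, Bcl2 and Bach2, the 15 highest and 10 lowest ratios, the 10 or 5 largest rises and falls per comparison among genes averaging 50 CPM or more whose pools did not overlap, the 5 largest differences of either sign, up to 5 members per list, and genes of other cells. Some genes that the rule takes in are not reported here. List members that passed are named beyond this rule where a count is small, and the cells with most Ccl5 and Ly6c2 were singled out after their values were seen. Exon lengths and coordinates are from GENCODE M21. Alternatives were DESeq2 1.42.0, library size alone, no filter, only the groups compared, pool number as a block, deeper cells, second hashtags, each pool left out, and C2 as the comparator. Another 2, genes higher in C9 and removal of the exon length trend, were chosen after the data were seen.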

Additional observations from a re-analysis of the deposited data

Results flagged for a closer look

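Each result here was picked out because the change with dose in C9 differed from that in the other CD4 cells of the same pools, by edgeR's interaction test. Values are differences of log2 changes, C9 minus the other CD4 cells, and no explanation was tested.

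At 50 mg/kg the largest positive differences were those of Myo6 at 3.30 (adjusted p = 6.94e-06), Rflnb at 3.07 (adjusted p = 2.83e-10), Tnfrsf25 at 2.78 (adjusted p = 0.000227), Jaml at 2.71 (adjusted p = 0.000618) and Tnfsf8 at 2.52 (adjusted p = 5.89e-08). They came about in different ways. Myo6 rose in C9, while its value in the other CD4 cells was -0.76 ± 0.34. Rflnb, a gene of the naive list, was at 94.4, 83.9 and 98.0 CPM in the saline pools, 166, 106 and 119 at 5 mg/kg and 161, 125 and 91.9 at 50 mg/kg in C9 and changed by -2.27 ± 0.15 in the other cells. The death receptor gene Tnfrsf25 (-1.72 ± 0.11), Jaml (-2.22 ± 0.30) and the CD30 ligand gene Tnfsf8 (-2.93 ± 0.15) also fell in the other cells.

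The largest negative differences at 50 mg/kg were those of Zbtb32 at -11.30 (adjusted p = 3.98e-05), Hist1h2ap at -10.95 (adjusted p = 0.000470), Ccl3 at -9.51 (adjusted p = 0.0138), Hist1h2ak at -9.43 (adjusted p = 0.00998) and Havcr2, the TIM-3 gene, at -9.33 (adjusted p = 0.0473). None of these had a UMI in C9 at 50 mg/kg, so the fitted values depend on the prior count and are no bounds. C9 UMIs at the doses 0, 5 and 50 mg/kg were 10, 4 and 0 for Zbtb32, 8, 11 and 0 for Hist1h2ap, 11, 2 and 0 for Ccl3, 31, 15 and 0 for Hist1h2ak and 9, 8 and 0 for Havcr2. With the 50 mg/kg sum at the floor of 3 UMIs over the group, levels in C9 were at least 4.38-fold, 3.50-fold, 4.81-fold, 13.6-fold and 3.94-fold lower than in saline, in the same order.

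Of the 4 positive differences at 5 mg/kg, the naming rule took in those of Sostdc1 at 3.47 (adjusted p = 0.0124), Itgb1 at 1.58 (adjusted p = 0.000591) and Ly6e at 0.58 (adjusted p = 0.0161). Sostdc1 rested on the third 5 mg/kg pool, with 154 CPM against 8.32 and 13.3 in the others of that dose, and its difference was 0.71 without that pool. Its call was lost without that pool, without any 1 of the saline pools and with C2 as the comparator. Itgb1 lost its call without the third 5 mg/kg pool and with C2. Ly6e lost its call without the first or the third saline pool, without the first or the second 5 mg/kg pool and with DESeq2. The largest negative differences were those of S100a6 at -1.80 (adjusted p = 4.98e-25), Atpif1 at -1.67 (adjusted p = 0.00983), Ccl5 at -1.48 (adjusted p = 1.19e-10), Lgals1 at -1.44 (adjusted p = 4.77e-18) and Anxa2 at -1.40 (adjusted p = 0.000919). S100a6, Lgals1 (the galectin-1 gene) and Anxa2 rose in the other CD4 cells at this dose (1.27 ± 0.03, 0.63 ± 0.04 and 0.45 ± 0.04) and fell in C9 (-0.82 ± 0.15, -1.11 ± 0.13 and -1.23 ± 0.30). The call of Ccl5 was lost with C2 and with DESeq2 and that of Lgals1 with C2. The call of Anxa2 was lost without the second saline pool or the third 5 mg/kg pool.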

How the results depend on the processing

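The C9 sums are shallow, so genes of few UMIs could not be tested, and each treatment is 1 capture. Counts of genes higher and lower at 50 mg/kg against saline were 205 and 272, and became 121 and 130 with DESeq2, 60 and 84 in cells of at least 2000 UMIs, and 114 and 143 among genes higher in C9 than in the other CD4 and CD8 cells. Removing the exon length trend left 143 lower. Both of these last settings were chosen after the data were seen. These counts fall with the number of cells or genes where cells or genes were left out, and otherwise the cause was not tested. At 5 mg/kg, 138 and 155 became 96 and 43 with DESeq2 and 73 and 35 in the deeper cells, while 48 were lower without the filter, 239 with library size alone and 91 without the length trend, and 86 were higher among genes higher in C9. For 50 against 5 mg/kg, 48 higher became 13 with DESeq2, 26 without the filter and 31 with only the groups compared, and 80 lower became 44 among genes higher in C9. The interaction at 50 mg/kg, 39 positive and 132 negative, gave 159 positive with C2 as the comparator, 65 with library size alone and 24 with DESeq2. At 5 mg/kg, 4 and 17 became 91 and 4 with C2, while 27 were negative with library size alone and 1 was positive with DESeq2. In cells of at least 2000 UMIs the share of C9 was 1.28 points above saline at 50 mg/kg and 2.32 points at 5 mg/kg.

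Leaving out each pool in turn gave 182 to 242 higher and 208 to 308 lower at 50 mg/kg, 124 to 164 and 105 to 163 at 5 mg/kg, and 29 (without the third 5 mg/kg pool) to 46 and 64 to 93 between the doses. It gave 25 (without the third 50 mg/kg pool) to 35 positive and 82 (without the second saline pool) to 131 negative differences at 50 mg/kg, 1 (without the third 5 mg/kg pool) to 4 and 12 to 18 at 5 mg/kg, share differences of 0.314 to 1.25 and -0.406 to 0.859 points at 5 and 50 mg/kg, and a clonotype difference of -22.5 to -21.0 points. Pools with the same number share only a number (correlations of their deviations -0.03 to 0.08). With pool number as a replicate block the counts were 196 and 263, 127 and 122, and 39 and 71. Over the named genes, 3402 values stayed on the same side of the threshold with the same sign, 393 lost a call, 54 gained one and 137 below the threshold changed sign. With the length trend removed at 5 mg/kg, B2m (-0.30), mt-Atp6 (-0.39) and mt-Co3 (-0.35), which were not called before, were called lower with their sign turned.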

Other observations

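The surface and receptor readouts of C9 add to its description. CD4 antibody UMIs per C9 cell had medians of 272 ± 29.1 in saline pools, 380.2 ± 37.3 in those at 5 mg/kg and 255 ± 10.4 in those at 50 mg/kg (mean ± SD of 3 pools), below the 339 ± 13.3, 513 ± 30.9 and 376 ± 18.7 of the other CD4 cells. The deposited module score named Stem_like1, whose gene list is not given in the sources used here, averaged 0.246 ± 0.00641, 0.187 ± 0.0173 and 0.275 ± 0.0364 in C9 against -0.0118 ± 0.0124, -0.00452 ± 0.00655 and -0.0524 ± 0.0161 in the others. The score named Glyco1 averaged 0.0154 ± 0.00736, 0.0214 ± 0.00154 and 0.0165 ± 0.00355 in C9 and 0.0389 ± 0.000604, 0.0410 ± 0.00207 and 0.0521 ± 0.00158 in the others.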
